A study of Mus musculus with 9 samples.

Results

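Antigen presentation was followed through 10 genes, H2-K1, H2-D1, B2m, Tap1, Tap2, Tapbp, Psmb8, Psmb9, Nlrc5 and Cd74, in bulk RNA sequencing of mouse skin fibroblasts. The genes were a given list, found by looking up their mouse symbols for the Ensembl identifiers of the count table. All 10 were found among 55401 genes, and all 10 were among the 16950 that passed the filter on low values, which asked for 10 normalized counts or more in any 3 libraries. The fibroblasts were primary cells from the skin of newborn wild-type mice, kept in DMEM with 10% fetal bovine serum. There were 3 groups of 3 libraries. The first received medium conditioned for 24 h by YUMM1.7 cells, a mouse melanoma line, and then treated with Cleanascite, a reagent that removes lipids (lipid-depleted TCM). The second received the same kind of tumor cell-conditioned medium untreated (TCM), and the third is labelled control. The labels do not give the medium of the controls, the length of the treatment, the mouse strain, or whether replicates came from separate mice or cultures, so a p-value here reflects nothing beyond the spread among these libraries. No group received control medium treated with the reagent, so lipid removal cannot be told apart from other effects of the reagent.

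Class I molecules carry peptides from inside the cell to its surface, where CD8 T cells read them. A heavy chain (H2-K1, H2-D1) pairs with the light chain beta-2 microglobulin (B2m). Peptides are cut by the proteasome, whose inducible subunits Psmb8 and Psmb9 replace the constitutive subunits Psmb5 and Psmb6, are pumped into the endoplasmic reticulum by the transporter of Tap1 and Tap2, and are loaded with the help of tapasin (Tapbp). Nlrc5 is a transactivator of class I genes, and Cd74 is the invariant chain of class II molecules. Interferon is the best known inducer of the whole set.

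On the GRCm38 assembly, 7 of the 10 genes lie on chromosome 17, in the mouse major histocompatibility complex. H2-K1 (ENSMUSG00000061232.16) spans chr17:33996017-34000347 on the minus strand and H2-D1 (ENSMUSG00000073411.12) spans chr17:35262730-35267499 on the plus strand. Tapbp lies at chr17:33915899-33929292. Psmb9, Tap1, Psmb8 and Tap2 stand next to each other in that order within 34335 bases, chr17:34181987-34216321, Psmb9 on the minus strand and the other 3 on the plus strand. B2m is on chromosome 2, chr2:122147686-122153083, and Nlrc5 on chromosome 8, chr8:94434356-94527272. Tap1 and Psmb9 are read in opposite directions from RefSeq start sites 226 bases apart.

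The promoters of 4 members are shown because they belong to genes that moved together in TCM and differ in the letters they hold. They were taken from RefSeq windows on GRCm38.p6, which run from 250 bases before to 50 bases after each start site. The capitals mark a kB palindrome (GGGGATTCCCC), an interferon element (GAANNGAAA, or a longer form of GAAA and GAAA with 2 bases between), the kappa enhancer form of a kB site (GGGACTTTCC), a short CRE site (TGACG) and a CCAAT box, on either strand. Those of H2-K1, chr17:34000328-34000473 on the minus strand, H2-D1, chr17:35262908-35263053 on the plus strand, B2m, chr2:122147527-122147686 on the plus strand, and the full Tap1 window, chr17:34187306-34187605 on the plus strand, read:
H2-K1: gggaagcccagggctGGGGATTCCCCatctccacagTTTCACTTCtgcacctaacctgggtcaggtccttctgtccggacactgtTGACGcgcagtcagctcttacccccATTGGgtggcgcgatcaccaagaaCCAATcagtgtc
H2-D1: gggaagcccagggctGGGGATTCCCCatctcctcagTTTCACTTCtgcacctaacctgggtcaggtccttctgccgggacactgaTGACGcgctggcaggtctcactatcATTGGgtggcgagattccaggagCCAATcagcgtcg
B2m: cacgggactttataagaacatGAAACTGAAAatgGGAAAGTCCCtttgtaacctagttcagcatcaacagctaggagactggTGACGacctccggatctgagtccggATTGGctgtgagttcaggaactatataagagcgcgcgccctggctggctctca
Tap1: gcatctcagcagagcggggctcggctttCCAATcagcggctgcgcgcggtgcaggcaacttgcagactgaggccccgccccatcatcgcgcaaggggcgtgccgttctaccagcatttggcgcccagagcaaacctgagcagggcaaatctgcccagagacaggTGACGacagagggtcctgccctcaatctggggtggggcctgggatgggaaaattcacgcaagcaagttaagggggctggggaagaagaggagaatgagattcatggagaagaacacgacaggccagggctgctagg

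Up to the ATTGG, the H2-K1 and H2-D1 stretches are identical at 104 of 115 bases (90.4%). Both hold the kB palindrome, which stands in 0.0304% of the 32851 RefSeq windows, and the shorter interferon element, present in 7.52% of windows. B2m instead holds the longer interferon element, present in 3.44% of windows, and the kappa enhancer form of the kB site, present in 0.155%. The letters of the palindrome were taken from the H2-K1 window and those of the kappa form from the B2m window, so finding them there is no result. The shorter interferon element is not contained in the longer one. H2-K1, H2-D1 and B2m also share a TGACG followed after exactly 20 bases by ATTGG, an arrangement found in 0.0944% of windows. TGACG alone is in 20.8% of windows and CCAAT alone in 37.4%. Tap1 holds both, without that spacing, and neither kB form nor interferon element. Of the 7 members with a window, Psmb8 was the one with a GAS element (TTCNNNGAA, 8.30% of windows). These are matches of letters in the window searched and do not show binding.

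The data held 51015024 to 64965906 reads per library. All 10 fibroblast markers, among them Col1a1, Col3a1 and Pdgfra, were detected. Their summed normalized counts were 1643636 to 1698809 in lipid-depleted TCM, 1245319 to 1460508 in TCM and 2439621 to 2508617 in control libraries. By limma, 4 of the 10 were higher and 4 lower in TCM than in control. Another count, in lipid-depleted TCM against TCM, was 5 higher and 2 lower. For scale with this and the marker counts below, 29.5% of all genes were higher and 31% lower in the first comparison. In the second, 22.7% were higher and 22.5% lower. Col1a1 averaged 391091 ± 10204 in lipid-depleted TCM, 272808 ± 53277 in TCM and 927289 ± 18267 in control libraries. Pdgfra averaged 24784 ± 923, 37493 ± 1523 and 13768 ± 386 in the same order. All 8 T and B lymphocyte markers were under 10 normalized counts in every library, with Cd3e, Cd3d, Cd8a and Ms4a1 at 0. Summed counts of 7 melanocyte and melanoma markers were 1002 to 1121 in lipid-depleted TCM, 880.3 to 955 in TCM and 757 to 863 in control libraries, and those of 8 endothelial markers were 508 to 544, 437 to 477 and 328 to 379 in the same order. Both sums were highest in lipid-depleted TCM and lowest in control, without overlap, as were the heavy chains described below. Of 5 tested endothelial markers, 1, Egfl7, was called higher and 2 lower in TCM than in control by limma. In lipid-depleted TCM against TCM, 2 were higher and 0 lower. Egfl7 averaged 306 ± 13 in lipid-depleted TCM, 257 ± 22 in TCM and 131 ± 19 in control libraries. Most of the melanocyte sum was Mitf, while Mlana averaged 32.2 ± 4.6 in lipid-depleted TCM, 3.5 ± 3.0 in TCM and 4.0 ± 1.5 in control libraries. Sox10 was highest in TCM instead, at 123 ± 15 in lipid-depleted TCM, 191 ± 45 in TCM and 123 ± 1.0 in control libraries. Pmel was called lower in TCM than in control. Of 6 tested melanocyte markers, 2 were higher and 1 lower in TCM than in control by limma. Between the conditioned media, 2 were higher and 1 lower in lipid-depleted TCM. Summed counts of 8 keratinocyte markers were 88.2 to 112 in lipid-depleted TCM, 133 to 149 in TCM and 159 to 196 in control libraries. Of the 5 tested, 0 were called by limma in TCM against control and 0 between the conditioned media. In lipid-depleted TCM against control, where 30.6% of all genes were lower, 1 was lower and 0 higher. A sum of 18 interferon-stimulated genes was 7084 to 7834 in lipid-depleted TCM, 11850 to 12309 in TCM and 4241 to 5897 in control libraries. Control replicate 3 was the highest control at 5897, against 4241 and 4353. Mitochondrially encoded genes took 1.82% to 2.12% of the counts in lipid-depleted TCM, 2.67% to 3.14% in TCM and 1.77% to 1.85% in control libraries. The part of these differences in the results below was not tested. In bulk RNA, fewer cells of a type and less RNA per cell cannot be told apart.

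**Figure D1:**
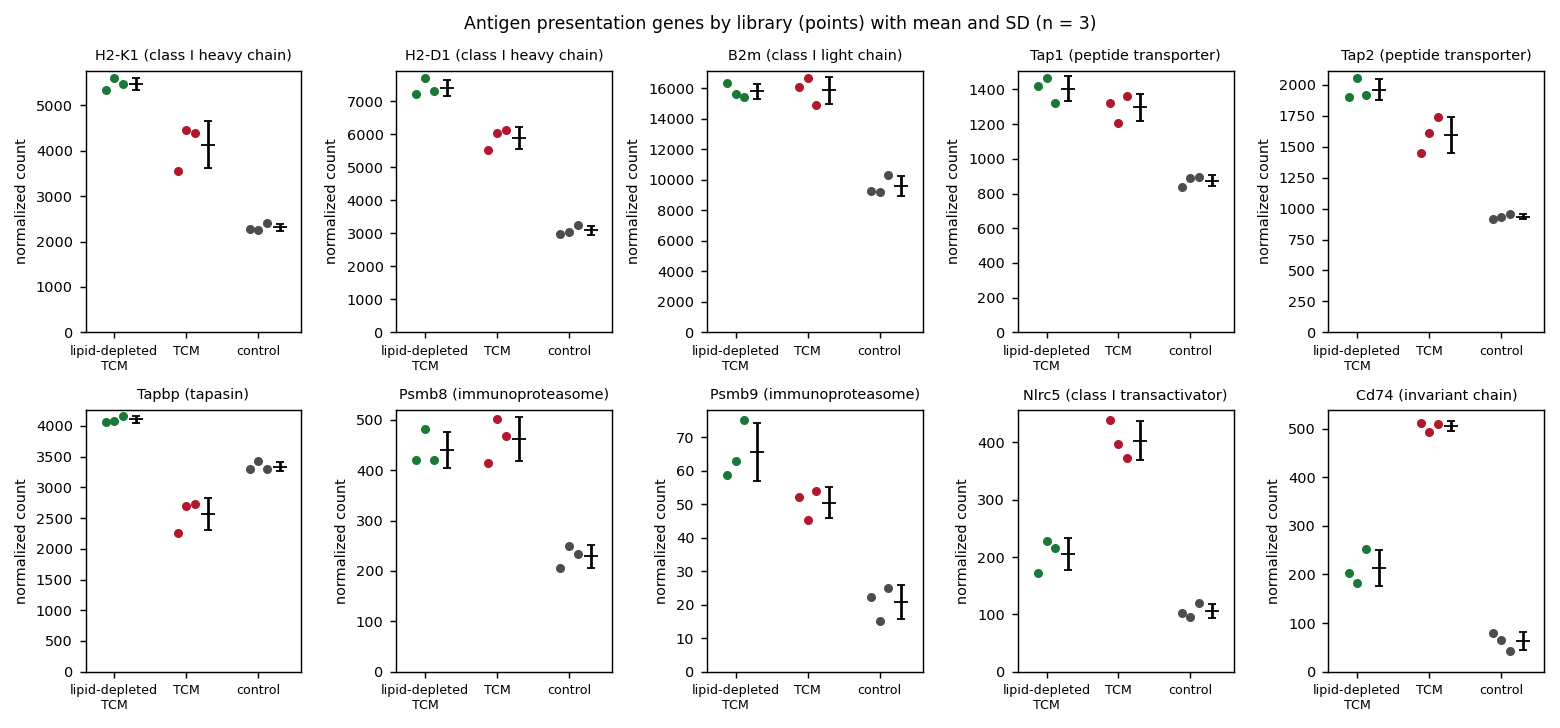
Normalized counts (vertical axes, each starting at 0) of the 10 genes in lipid-depleted TCM, TCM and control libraries. Points are libraries and bars are the mean and SD of 3. Cd74 and Nlrc5 are highest in TCM, the heavy chains and Tap2 are highest in lipid-depleted TCM, and Tapbp is lowest in TCM.

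In TCM, 9 of the 10 genes were higher than in control and 1, Tapbp, was lower, by limma at a Benjamini-Hochberg adjusted p under 0.05. Changes of that kind were common, since 60.5% of the 16950 genes were called in this comparison, 29.5% higher and 31% lower. For none of the 10 did a TCM library overlap a control library, as for 63.9% of all genes. The median log2 change of the 10 was 0.88, against -0.0022 for all genes tested. The rises ran from 1.48-fold for Tap1 to 8.08-fold for Cd74, on normalized counts to which no pseudocount was added. Log2 changes below were taken after adding 1 to each normalized count, which makes changes of low genes smaller, and their SE and 95% interval come from the limma fit.

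Between the conditioned media, members were called in both directions, as were genes over the whole table. Against TCM, lipid-depleted TCM gave 4 higher genes, H2-K1, H2-D1, Tap2 and Tapbp, and 2 lower ones, Cd74 and Nlrc5, while B2m, Tap1, Psmb8 and Psmb9 were not called. In this comparison 45.2% of all genes were called, 22.7% higher and 22.5% lower, and the median log2 change was 0.21 for the 10 genes and 0.013 for all genes. Libraries did not overlap for 7 of the 10, against 52.4% of all genes. Against control, all 10 were higher in lipid-depleted TCM, where 60% of all genes were called and 29.4% were higher. These folds ran from 1.23 for Tapbp to 3.41 for Cd74, with 2.36 for H2-K1 and 2.39 for H2-D1. The median log2 change was 1.01 for the 10 and 0.0020 for all genes, and no gene of the 10 had overlapping libraries, as for 71.2% of all genes. The comparisons share libraries and are not independent of each other.

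**Figure D2:**
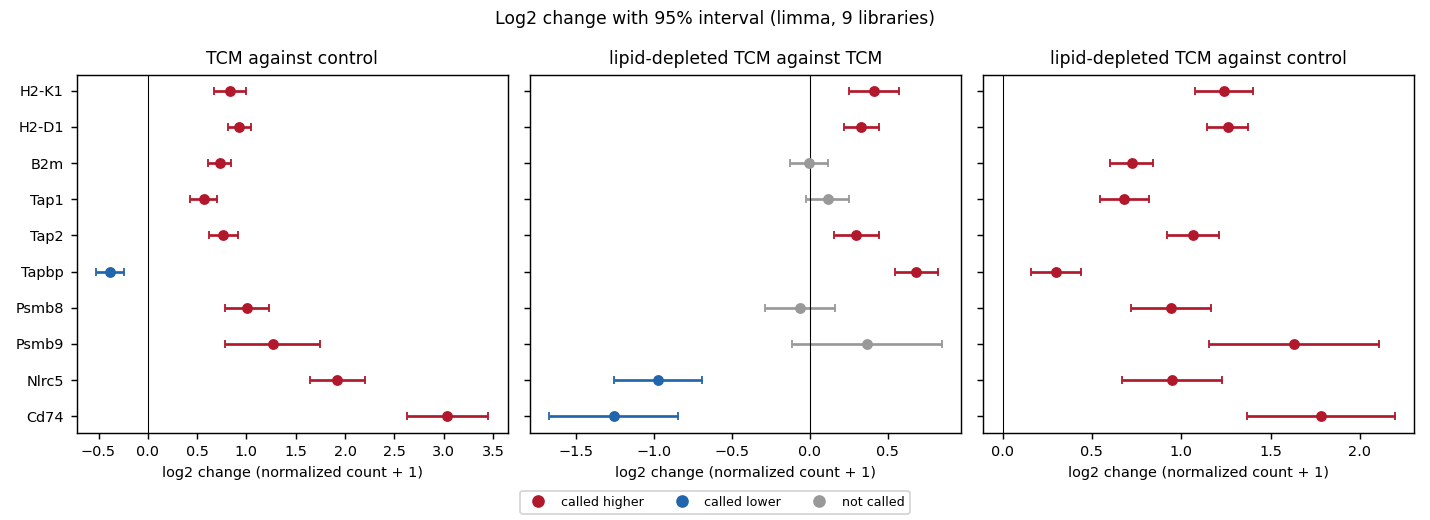
Log2 change of each gene (horizontal axes) with its 95% interval from limma. The panels, left to right, set TCM against control, the lipid-depleted medium against TCM, and the lipid-depleted medium against control. Red points were called higher, blue points lower and grey points not called at an adjusted p under 0.05. Tapbp lies at -0.38, 0.68 and 0.30 in the 3 panels, and Cd74 at 3.04, -1.26 and 1.78.

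The heavy chains rose in TCM and stood higher again after lipid depletion. H2-K1 had 5347, 5595 and 5458 normalized counts in lipid-depleted TCM, 3546, 4466 and 4396 in TCM, and 2283, 2250.0 and 2408 in control libraries. The 3 groups did not overlap, and TCM replicate 1 was the lowest of its group. By limma, H2-K1 changed by 0.83 on the log2 scale (SE 0.07, adjusted p = 8.2e-07) in TCM against control and 0.41 (SE 0.07, adjusted p = 0.0007) in lipid-depleted TCM against TCM. H2-D1, the other classical heavy chain, had 7216, 7689 and 7313 normalized counts in lipid-depleted TCM, 5516, 6039 and 6126 in TCM, and 2994, 3035 and 3255 in control libraries. Its groups did not overlap either. H2-D1 changed by 0.93 (SE 0.05, adjusted p = 1e-08 by limma) in TCM against control and 0.33 (SE 0.05, adjusted p = 0.00024) in lipid-depleted TCM against TCM. H2-K1 and H2-D1 are similar genes: 7.89% of the 50-base stretches of H2-K1 transcripts and 14.3% of those of H2-D1 also occur in transcripts of other genes. How the authors assigned such reads is not given in the sources used here, so the split between these 2 and their relatives is uncertain.

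B2m, the light chain, rose in TCM with no called change on lipid depletion. It had 16355, 15639 and 15395 normalized counts in lipid-depleted TCM, 16062, 16649 and 14892 in TCM, and 9233, 9194 and 10333 in control libraries. Both conditioned media lay above control and overlapped each other. In TCM against control the change was 0.73 on the log2 scale (SE 0.06, adjusted p = 1.8e-07 by limma). Lipid-depleted TCM against TCM gave -0.0054 with a 95% interval of -0.13 to 0.12 (limma adjusted p = 0.95).

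Set against B2m within each library, a ratio that does not depend on the library scaling, both heavy chains were higher in lipid-depleted TCM than in TCM. The log2 ratio of H2-K1 to B2m averaged -1.53 ± 0.07 in lipid-depleted TCM, -1.95 ± 0.21 in TCM and -2.05 ± 0.05 in control libraries (SD, n = 3 each). The difference was 0.42 (SE 0.13) between lipid-depleted TCM and TCM, with no overlap, and 0.10 (SE 0.13) between TCM and control, with overlap; the second ran from 0.010 without TCM replicate 3 to 0.22 without TCM replicate 1. The H2-D1 to B2m difference was 0.34 (SE 0.09) between lipid-depleted TCM and TCM, and 0.20 (SE 0.08) between TCM and control, neither with overlap; without TCM replicate 3 the second was 0.13. In a 2-sided exact permutation test, p was 0.1 for every pair of groups without overlap, the smallest that 3 against 3 can give. Over the 18 ratio tests made, an exact permutation p of 0.1 became 0.13 after Benjamini-Hochberg adjustment.

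The subunits of the peptide transporter moved by different amounts. Tap1 had 1421, 1466 and 1324 normalized counts in lipid-depleted TCM, 1320.4, 1209 and 1359 in TCM, and 838, 887 and 898 in control libraries. The conditioned media overlapped each other and lay above control. Tap1 changed by 0.57 on the log2 scale (SE 0.06, adjusted p = 6.5e-06 by limma) in TCM against control and 0.12 (95% interval -0.02 to 0.25, adjusted p = 0.16) in lipid-depleted TCM against TCM. Tap2 had 1902, 2057 and 1921 normalized counts in lipid-depleted TCM, 1447, 1607 and 1738 in TCM, and 915, 932 and 960.2 in control libraries. No groups overlapped for Tap2. Tap2 changed by 0.77 (SE 0.07, adjusted p = 6.6e-07 by limma) in TCM against control and 0.30 (SE 0.07, adjusted p = 0.0031) in lipid-depleted TCM against TCM. The log2 ratio of Tap1 to Tap2 averaged -0.48 ± 0.06 in lipid-depleted TCM, -0.30 ± 0.15 in TCM and -0.10 ± 0.03 in control libraries (SD, n = 3 each). No 2 groups overlapped (exact permutation p = 0.1 in each comparison), and the difference of -0.18 between lipid-depleted TCM and TCM was -0.10 without TCM replicate 1.

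Tapbp, which bridges the transporter and the class I molecule, was the 1 member lower in TCM than in control. It had 4064, 4084 and 4165 normalized counts in lipid-depleted TCM, 2263, 2696 and 2736 in TCM, and 3291, 3429 and 3293 in control libraries. Every TCM library lay below every control library, and every lipid-depleted TCM library above every other. Tapbp differed by -0.38 on the log2 scale (SE 0.06, adjusted p = 0.00021 by limma) in TCM against control, and -0.23 with libraries scaled to the same total, where it was still called. It was 0.68 (SE 0.06, limma adjusted p = 3.1e-06) in lipid-depleted TCM against TCM and 0.30 (SE 0.06, adjusted p = 0.0014) in lipid-depleted TCM against control. Exons of Gm19412 on the opposite strand cover 24.9% of the Tapbp exon bases, and that gene had 10.8 to 31.3 normalized counts. Exons of Zbtb22 on the same strand cover 4.11%, and how reads of that stretch were assigned is not known. Zbtb22 averaged 1570 ± 89 in lipid-depleted TCM, 1515 ± 166 in TCM and 1551 ± 25 in control libraries, and was not called in any comparison.

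Both immunoproteasome subunits rose in TCM. Psmb8 had 421, 483 and 420.0 normalized counts in lipid-depleted TCM, 415, 501 and 468 in TCM, and 205, 250.1 and 233 in control libraries. The conditioned media overlapped and neither overlapped control. The log2 change of Psmb8 was 1.01 (SE 0.10, limma adjusted p = 2.9e-06) in TCM against control and -0.06 (95% interval -0.29 to 0.16, adjusted p = 0.65) in lipid-depleted TCM against TCM. Psmb9, the lowest member in normalized counts, had 58.7, 62.9 and 75.2 in lipid-depleted TCM, 52.3, 45.4 and 53.9 in TCM, and 22.3, 15.1 and 25.2 in control libraries. No groups overlapped. That of Psmb9 was 1.26 (SE 0.22, limma adjusted p = 0.00028) in TCM against control and 0.37 (95% interval -0.11 to 0.84, adjusted p = 0.2) in lipid-depleted TCM against TCM, not called. Exons of Psmb9 and Tap1 overlap by 212 bases on opposite strands, and the strand setting of the counting is not given in the sources used here, so reads of that stretch cannot be assigned.

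The constitutive partners changed much less, and their direction against control depended on the scaling. Psmb5 averaged 2866 ± 49 normalized counts in lipid-depleted TCM, 2791 ± 160 in TCM and 3082 ± 123 in control libraries (SD, n = 3 each), with a log2 change of -0.14 in TCM against control (limma adjusted p = 0.029), and 0.01 with libraries scaled to the same total (adjusted p = 0.84). The log2 ratio of Psmb8 to Psmb5 was higher by 1.15 (SE 0.13) in TCM than in control and by 1.05 (SE 0.11) in lipid-depleted TCM than in control, both without overlap (exact permutation p = 0.1). Psmb6 averaged 4294 ± 86 in lipid-depleted TCM, 4945 ± 189 in TCM and 4733 ± 122 in control libraries, with a log2 change of 0.06 in TCM against control that was not called, though 0.22 and called with the same-total scaling. It was -0.20 in lipid-depleted TCM against TCM (limma adjusted p = 0.0022). The log2 ratio of Psmb9 to Psmb6 was higher by 1.2 (SE 0.24) in TCM than in control and by 0.57 (SE 0.12) in lipid-depleted TCM than in TCM, without overlap (exact permutation p = 0.1). The third inducible subunit, Psmb10, averaged 623 ± 42 normalized counts in lipid-depleted TCM, 526 ± 44 in TCM and 486 ± 47 in control libraries. It was not called in TCM against control (log2 change 0.11, limma adjusted p = 0.3) but was with the same-total scaling (0.27, adjusted p = 0.024), and its ratio to Psmb7 overlapped there (exact permutation p = 0.5). Psmb10 was called higher in lipid-depleted TCM than in TCM and in control by limma. With the same-total scaling it was not called against TCM (0.24, limma adjusted p = 0.061). Its log2 ratio to Psmb7 was higher by 0.29 (SE 0.10) in lipid-depleted TCM than in control, without overlap (exact permutation p = 0.1). Between the conditioned media that ratio overlapped (exact permutation p = 0.2). Psmb5 shares 54.1% of its 50-base stretches with other genes, mainly Gm3375, so its level is uncertain.

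**Figure D3:**
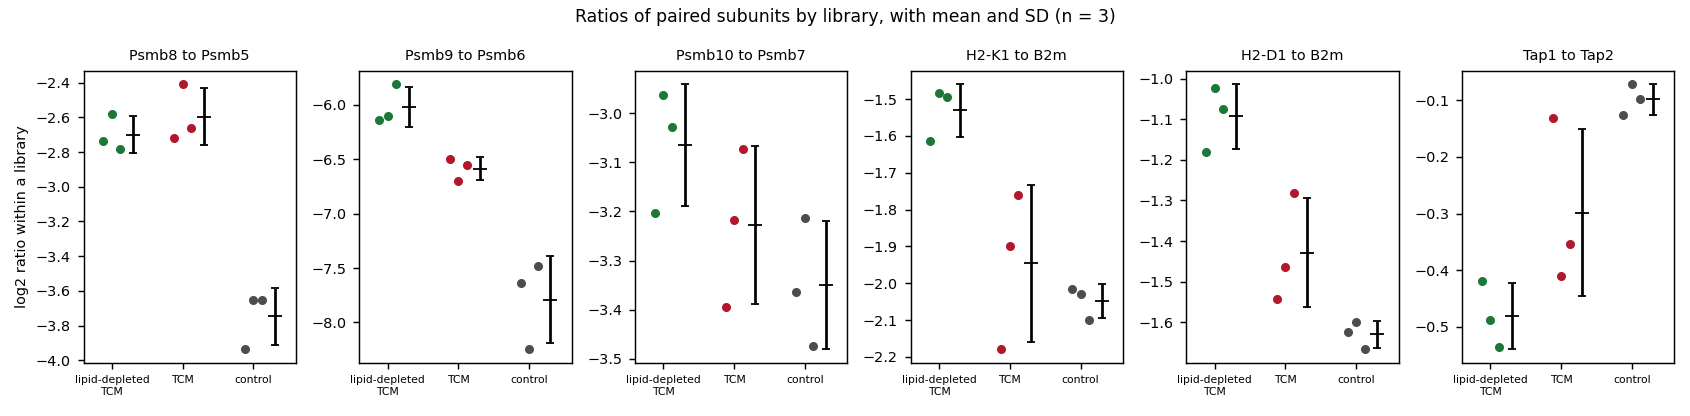
Log2 ratio of 2 genes within each library (vertical axes, scales differ between panels) for lipid-depleted TCM, TCM and control. Points are libraries and bars are the mean and SD of 3. The Psmb8 to Psmb5 and Psmb9 to Psmb6 ratios lie above control in both conditioned media, while the heavy chain to B2m ratios are highest in lipid-depleted TCM.

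Nlrc5 and Cd74 had the largest rises in TCM among the 10 and were the 2 that fell on lipid depletion. Nlrc5 had 173, 227 and 216 normalized counts in lipid-depleted TCM, 439, 396 and 373 in TCM, and 103, 95 and 119 in control libraries. The 3 groups did not overlap, with lipid-depleted TCM between the other two. Its log2 change was 1.92 (SE 0.13, limma adjusted p = 5.5e-08) in TCM against control, -0.98 (SE 0.13, adjusted p = 6e-05) in lipid-depleted TCM against TCM, and 0.95 (SE 0.13, adjusted p = 3.7e-05) in lipid-depleted TCM against control. Cd74 had 204, 181 and 253 normalized counts in lipid-depleted TCM, 511, 493 and 509 in TCM, and 78.6, 66.0 and 42.7 in control libraries. Again the groups did not overlap and lipid-depleted TCM stood between. Its log2 change was 3.04 (SE 0.19, limma adjusted p = 2.7e-08) in TCM against control, -1.26 (SE 0.19, adjusted p = 0.00017) in lipid-depleted TCM against TCM, and 1.78 (SE 0.19, adjusted p = 4e-06) in lipid-depleted TCM against control. As folds, Nlrc5 was 3.81-fold and Cd74 8.08-fold higher in TCM than in control, and 1.94-fold and 3.41-fold higher in lipid-depleted TCM than in control. Nlrc5 and the heavy chains thus went opposite ways between the 2 conditioned media, each past the threshold.

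Cd74, on chromosome 18, is also a marker of macrophages, dendritic cells and B cells. Of 14 macrophage and dendritic cell markers, 10 were under 10 normalized counts in every library, among them Ptprc at 0 to 3.19, and Fcgr1 was at 0. Their summed counts, were 462 to 492 in lipid-depleted TCM, 262 to 314 in TCM and 317 to 412 in control libraries. The sum was mostly Lyz2, which was lowest in TCM, at 365 ± 19 in lipid-depleted TCM, 127 ± 12 in TCM and 204 ± 31 in control libraries. Of the 4 markers tested, 1 was called higher and 2 lower in TCM than in control by limma. In lipid-depleted TCM against TCM, 1 was higher and 1 lower. Over all genes, 29.5% were higher and 31% lower in the first comparison, and 22.7% and 22.5% in the second. Cd68, another of these markers, moved in the same directions as Cd74, called higher in TCM against control and lower on lipid depletion. It averaged 52.8 ± 8.9 in lipid-depleted TCM, 92.1 ± 12.8 in TCM and 43.3 ± 11.9 in control libraries. Csf1r was called lower in TCM than in control, at 11.8 ± 4.5 in lipid-depleted TCM, 16.5 ± 5.4 in TCM and 78.9 ± 19.7 in control libraries. The part of such cells in the Cd74 values was not tested. Among class II genes themselves, H2-Ab1, the beta chain of I-A, averaged 77.9 ± 13.8 normalized counts in lipid-depleted TCM, 82.0 ± 19.2 in TCM and 19.5 ± 4.6 in control libraries (SD, n = 3 each). It rose by 2.01 on the log2 scale in TCM against control (limma adjusted p = 1.3e-05) and was not called between the conditioned media (log2 change -0.06, adjusted p = 0.86). Its partner H2-Aa and the class II transactivator Ciita did not pass the filter, with at most 1.06 and 2.03 normalized counts in any library, and H2-Eb1 had 3.78 to 18.3. Of 15 class II presentation genes, 7 were tested. In TCM against control, where 29.5% of all genes were higher and 31% lower, 5 of the 7 were higher and 0 lower. In lipid-depleted TCM against TCM, 2 were higher and 2 lower, near the 22.7% and 22.5% of all genes. Among the 7, Lgmn, an endosomal protease, averaged 4660 ± 61 in lipid-depleted TCM, 5726 ± 257 in TCM and 3017 ± 42 in control libraries. Ctsl, the protease cathepsin L, averaged 38591 ± 772 in lipid-depleted TCM, 36428 ± 1782 in TCM and 19939 ± 172 in control libraries. Between the conditioned media, the largest called changes of the 7, by the rule used for naming genes, were in H2-DMb1 and H2-DMa. Their values are not given here.

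Levels of different genes were compared per kilobase, with the median length of a gene's basic protein-coding transcripts. On that scale B2m was the most abundant of the 10 in each group, at 18368 normalized counts per kb in lipid-depleted TCM, 18451 in TCM and 11147 in control libraries. H2-D1 and H2-K1 came next and overlapped each other in each group, at 3523 and 3486 in lipid-depleted TCM, 2804 and 2638 in TCM, and 1472 and 1476 in control libraries. Tapbp followed in each group, at 1496, 935 and 1217 per kb in lipid-depleted TCM, TCM and control. In lipid-depleted TCM the order then ran Tap2 at 569, Tap1 at 504, Psmb8 at 271, Cd74 at 158, Psmb9 at 48.5 and Nlrc5 at 35.7, with no overlap of neighbours. In TCM, Tap1 at 466 and Tap2 at 464 overlapped, followed by Cd74 at 375, Psmb8 at 284, Nlrc5 at 70.1 and Psmb9 at 37.4. In control, Tap1 at 314, Tap2 at 272, Psmb8 at 141 and Cd74 at 46.4 did not overlap, while Nlrc5 at 18.4 and Psmb9 at 15.4 did. On this scale Cd74 stood above Psmb8 in TCM and below it in the other groups. The order depends on the length used. Per kilobase of all annotated exon bases, H2-D1 stood well above H2-K1, at 2872 against 1861 in lipid-depleted TCM, 2285 against 1408 in TCM and 1200 against 788 in control libraries. Tap1 then stood below Tap2 in all 3 groups and below Cd74 in TCM, at 237 for Tap1, 301 for Cd74 and 422 for Tap2, and Nlrc5 stood above Psmb9 in lipid-depleted TCM, at 24.2 and 17.9.

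The rest of the pathway was described from lists chosen with earlier results of these data known, so their counts are no independent evidence. For scale, 29.5% of all genes were higher and 31% lower in TCM against control. The shares were 22.7% and 22.5% in lipid-depleted TCM against TCM, and 29.4% and 30.6% in lipid-depleted TCM against control. Of 14 tested class I heavy chain genes outside the 10, including non-classical and class I-like ones, 9 were higher and 1 lower in TCM than in control, with a median log2 change of 0.49. H2-Q4, a non-classical Q-region gene, averaged 780 ± 19 normalized counts in lipid-depleted TCM, 792 ± 138 in TCM and 239 ± 5 in control libraries, although 24.3% of its 50-base stretches occur in other genes. H2-M3, which presents formylated peptides, averaged 302 ± 13 in lipid-depleted TCM, 239 ± 18 in TCM and 104 ± 12 in control libraries and was called higher in all 3 comparisons by limma. Hfe, a class I-like regulator of iron uptake, averaged 1087 ± 62 in lipid-depleted TCM, 1669 ± 25 in TCM and 583 ± 77 in control libraries, lower on lipid depletion. Fcgrt, the heavy chain of the neonatal Fc receptor, averaged 6476 ± 175 in lipid-depleted TCM, 4260 ± 293 in TCM and 3222 ± 64 in control libraries, so it rose further (log2 change 0.61 between the conditioned media). In lipid-depleted TCM against TCM, 7 of the 14 were higher and 2 lower, and 3 or 4 were higher when TCM replicate 2 or 3 or lipid-depleted TCM replicate 2 or 3 was left out.

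Of 14 peptide trimming and loading genes, 0 were higher and 7 lower in TCM than in control, with a median log2 change of -0.12; with libraries scaled to the same total 5 were higher and 3 lower, with a median of 0.04. In lipid-depleted TCM, 2 were higher and 6 lower than in TCM, and 1 was higher and 9 lower than in control. The 6 lower than in TCM became 2 or 3 when control replicate 1 or any 1 of the lipid-depleted TCM replicates was left out. Thop1, a cytosolic peptidase, was among them, with 1485 ± 101 normalized counts in lipid-depleted TCM, 1861 ± 359 in TCM and 1973 ± 54 in control libraries. Calr, the chaperone calreticulin, averaged 29250 ± 1464 normalized counts in lipid-depleted TCM, 27047 ± 3073 in TCM and 61397 ± 525 in control libraries. Pdia3, its partner disulfide isomerase, averaged 28269 ± 1352 in lipid-depleted TCM, 26253 ± 1231 in TCM and 50534 ± 947 in control libraries. Their log2 changes in TCM against control were -1.19 and -0.95, both called, while those between the conditioned media, 0.12 and 0.11, were not. Tapbpl, the tapasin-related peptide editor, moved like Tapbp in the first 2 comparisons, at 446 ± 28 in lipid-depleted TCM, 348 ± 25 in TCM and 442 ± 37 in control libraries, with log2 changes of -0.34 (limma adjusted p = 0.005) and 0.36 (adjusted p = 0.006) in TCM against control and in lipid-depleted TCM against TCM. The 14 subunits of the constitutive 20S proteasome gave 1 higher and 2 lower genes in TCM, and 9 and 0 with the same-total scaling. Of 7 other immunoproteasome and activator genes, Psmb10 among them, none was called by limma in TCM against control, where 0 had an unadjusted p under 0.05 and edgeR and DESeq2 called 0, and 3 were higher with the same-total scaling. In lipid-depleted TCM against TCM, where 22.7% of all genes were higher and 22.5% lower, 3 of the 7 were higher and 0 lower.

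Of 17 tested interferon and NF-kB inputs, 7 were higher and 1 lower in TCM than in control, and 13 and 0 with the same-total scaling. Ifng, the gene of interferon gamma, had no read in any library. Irf1, a direct activator of class I genes, averaged 1549 ± 65 normalized counts in lipid-depleted TCM, 1212 ± 80 in TCM and 1139 ± 87 in control libraries. It was not called in TCM against control (log2 change 0.09, limma adjusted p = 0.28), was with the same-total scaling (0.25, adjusted p = 0.0076), and was higher in lipid-depleted TCM than in TCM (0.35, adjusted p = 0.0012). The type I interferon signalling factors Stat2, Irf9 and Irf7 rose in TCM and fell on lipid depletion: Irf7 averaged 221 ± 10 in lipid-depleted TCM, 854 ± 65 in TCM and 132 ± 41 in control libraries. Of 16 tested interferon-stimulated genes, which include Irf7, 14 were higher and 0 lower in TCM than in control (median log2 change 2.44), and 0 were higher and 13 lower in lipid-depleted TCM than in TCM (median -1.71). The shares over all genes were 29.5% and 31% in the first comparison, and 22.7% and 22.5% in the second. Of the factors that bind the class I and class II promoters, Nfyc fell by 0.61 in TCM against control and Nfyb rose by 0.50, both on the log2 scale and called.

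**Figure D4:**
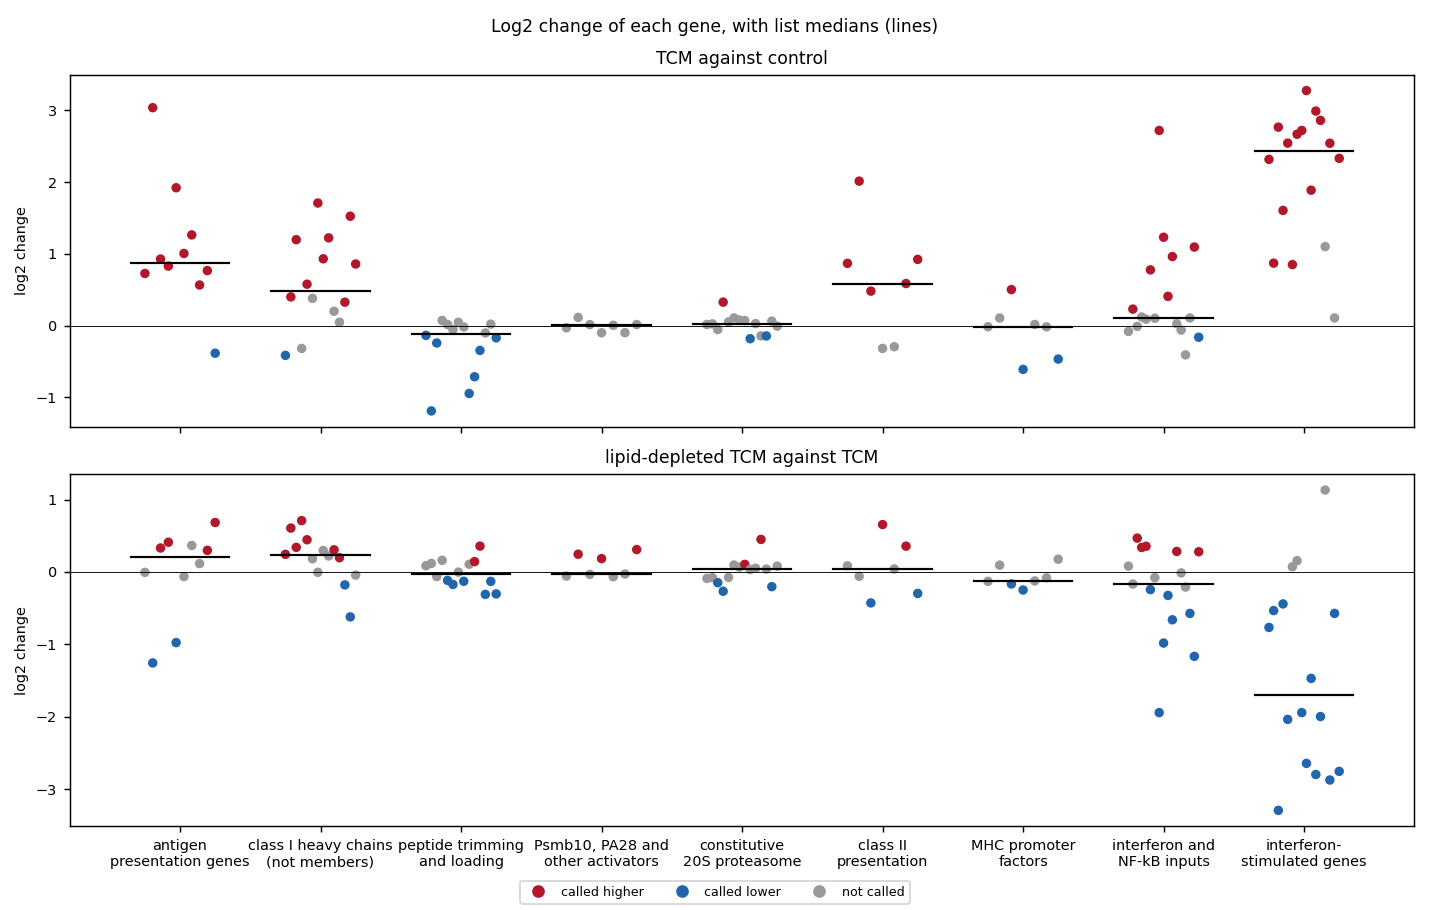
Log2 change (vertical axes) of every tested gene of each list in TCM against control (upper panel) and lipid-depleted TCM against TCM (lower panel). Each point is a gene, coloured by its call, and lines are list medians. The median of the interferon-stimulated genes is 2.44 in the upper panel and -1.71 in the lower, against 0.88 and 0.21 for the 10 antigen presentation genes.

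The letters shared by promoters were set beside the calls. The kB palindrome was in the windows of 9 genes, of which 7 were tested, including H2-K1, in which its letters were read. Of the 7, 4 were higher and 2 lower in TCM than in control, and 3 were higher and 0 lower in lipid-depleted TCM than in TCM. Besides H2-K1 and H2-D1 they include H2-Q6, another class I gene. The spaced TGACG and ATTGG pair was in the windows of 27 genes, of which 22 were tested, including the 3 members in which it was read; 12 were higher and 4 lower in TCM than in control, and 7 were higher and 5 lower in lipid-depleted TCM than in TCM. Over all genes, 29.5% were higher and 31% lower in TCM than in control, and 22.7% and 22.5% in lipid-depleted TCM than in TCM, and nothing is read from these small counts.

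Over the 9 libraries, each profile of log2 values centred on its own mean, the genes with the smallest root mean square difference to Cd74 were Ccl11, an eosinophil chemokine, at 0.19, Prr32 at 0.28 and Xdh, xanthine dehydrogenase, at 0.28. The nearest member to Cd74 was Nlrc5 at 0.57. Nearest to Nlrc5 were Ugt1a7c at 0.13, Trim30d at 0.13 and Osmr, the oncostatin M receptor, at 0.14, and its nearest member was Psmb8 at 0.47. Nearest to Psmb9 were H2-M3 at 0.16, Extl1 at 0.18 and Tgm2, a transglutaminase, at 0.19, and its nearest member was H2-D1 at 0.26. These distances describe likeness only.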

How the data were processed

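RNA was measured in 9 libraries, 3 per group. Per the labels' protocols, RNA was isolated with RNeasy columns and libraries came from a stranded TruSeq kit. The mm10 build, STAR 2.7.9a, Trim Galore 0.6.6, DESeq2 and FastQC are named per the submitters' processing notes. Not given in the sources used here are the counter, its strand setting and the annotation. The deposited values are the authors' signal, read counts divided by a size factor per library. With a tolerance of 0.01, 100% of values were whole multiples of 1 read in each library, so reads could be recovered (51015024 to 64965906 per library). With edgeR 4.0.16 on those reads, 10232 genes were called in TCM against control and 7744 in lipid-depleted TCM against TCM. It called 10174 in lipid-depleted TCM against control.

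Identifiers were matched without version to GENCODE M21 (GRCm38), where 55141 of 55401 were found. The 16950 genes passing the filter were fitted as log2(normalized count + 1) in limma 3.58.1 under R 4.3.3, with 3 group means, a variance trend and 6 residual degrees of freedom. Benjamini-Hochberg adjustment ran over all tested genes, which were called at an adjusted p under 0.05. Ratios of 2 genes within a library were compared by 2-sided exact permutation. The fit was also run on simulated counts of 16331 genes, with 200 changed and the same relative spread for every gene. It called 6% of 1.2-fold, 66% of 1.5-fold and 98% of 2-fold changes, and 0.037% of unchanged genes. In the data 60.5% of genes were called in TCM against control, so the simulation does not show how the fit behaves there. No replicates were duplicates: counts of any 2 libraries of a group differed beyond sampling noise. Replicate numbers were not used as pairs in the main fit, and whether they mark pairs is not known.

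Promoters are RefSeq windows on GRCm38.p6, and 7 of the 10 genes had one that was used. The members, lists, motifs and alternatives were chosen with earlier results of these data known, and the spaced pair and both kB forms after the promoters were read. The letters of the kB palindrome were taken from the H2-K1 window and those of the kappa enhancer form from the B2m window. Named beside the 10 genes were, from each list and comparison, up to 2 called genes with the largest change whose higher group averaged 50 or more, and Psmb5, Psmb6, Psmb7, Psmb10, Ciita, H2-Aa, H2-Ab1, H2-Eb1, Ifng and Irf1. Not every gene that meets the rule is given. From the marker lists, Cd68, Csf1r, Lyz2, Mitf, Mlana, Sox10, Pmel, Egfl7, Col1a1 and Pdgfra were picked after their values were seen. The nearest profiles were sought for the 3 members with the largest range of group means. Alternatives were a pseudocount of 0.5 or 5, a filter at 50 or none, TMM scaling or equal library totals, edgeR, DESeq2 1.42.0, a fit of only the groups compared, a replicate block, and each library left out in turn.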

Additional observations from a re-analysis of the deposited data

How the results depend on the processing

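The 10 members called in TCM against control, the 6 called between the conditioned media and the 10 called in lipid-depleted TCM against control were called in the same direction under each of the 19 alternatives. Of 570 member values, 566 kept direction and side of the threshold. The other 4 were B2m in lipid-depleted TCM against TCM, never called, whose log2 change of -0.0054 lay between -0.050 and 0.030 with 1 library left out; it was above 0 without TCM replicate 1 (0.0041) or 2 (0.030) and without lipid-depleted TCM replicate 2 (0.0016) or 3 (0.013), and the cause was not tested.

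With libraries scaled to the same total, the median over all genes was 0.16 in TCM against control and 0.15 in lipid-depleted TCM against control. The share of calls that were higher was then 66.4% and 65.6%, against 48.7% and 49.0% as reported. Genes called over all alternatives other than leaving out a library numbered 9364 to 10951, 6784 to 7744 and 9337 to 11607 in the 3 comparisons. With the replicate number as a block they were 9972, 7328 and 9961, and no member's call changed. The deviations of same-numbered libraries correlated at -0.025 to 0.027, and those of differently numbered ones at -0.070 to 0.084. No pairing by number was seen, but this cannot exclude that the numbers mark shared mice or cultures. Without control replicate 3, 11 interferon-stimulated genes were higher in lipid-depleted TCM than in control, against 7 with it. Depth limits Psmb9 most, at 15.1 to 75.2 normalized counts, where its 95% interval between the conditioned media spans -0.11 to 0.84.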

Other observations

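Ligands and receptors by which a presenting cell stimulates or restrains T cells were described beside the antigen presentation genes, as values without explanation. Of 10 tested, 8 were higher and 0 lower in TCM than in control, and 1 was higher and 3 lower in lipid-depleted TCM than in TCM. Over all genes, 29.5% were higher and 31% lower in the first comparison, and 22.7% and 22.5% in the second. Cd274, the inhibitory ligand PD-L1, averaged 203 ± 33 normalized counts in lipid-depleted TCM, 206 ± 40 in TCM and 53.9 ± 7.2 in control libraries (SD, n = 3 each). Its log2 change was 1.91 (SE 0.17) in TCM against control and -0.02 (SE 0.17) between the conditioned media, where it was not called. Vsir, the inhibitory ligand VISTA, averaged 309 ± 25 in lipid-depleted TCM, 270.0 ± 2.4 in TCM and 92.7 ± 15.5 in control libraries.

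Of the stimulating molecules named here, Cd40 was higher and Cd80 and Icosl were lower in lipid-depleted TCM than in TCM. Cd40, the receptor through which T cells license a presenting cell, averaged 672 ± 18 in lipid-depleted TCM, 412 ± 40 in TCM and 168 ± 20 in control libraries, and rose by 0.71 on the log2 scale between the conditioned media. Cd80, a ligand of CD28, averaged 165 ± 20 in lipid-depleted TCM, 401 ± 18 in TCM and 327 ± 42 in control libraries. Icosl, the ligand of ICOS, averaged 137 ± 12 in lipid-depleted TCM, 248 ± 21 in TCM and 88.1 ± 7.5 in control libraries. In lipid-depleted TCM against TCM, Cd80 fell by 1.28 and Icosl by 0.85 in log2, both called by limma.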
